A study of Mus musculus with 4 samples.

Results

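The genes that encode 8 inhibitory receptors or factors of T cell exhaustion (Pdcd1, Ctla4, Lag3, Havcr2, Tigit, Cd160, Entpd1 and Tox) were followed in lymphocytes from mouse melanomas treated with a topical glucocorticoid (GC). They were listed by name, with no threshold on a value but with earlier results of these data known, and are 8 of the 32285 genes measured. Levels were described in clusters CD8 1 to CD8 4, CD4, Tregs (regulatory T cells), NK (natural killer) and γδT cells, which together held 1945 of the 4108 cells profiled. The cells were live CD45+ leukocytes sorted from 20967 tumors, a melanoma line made from C57BL/6 mice with an inducible oncogenic Nras allele and Tyr::CreERT2, a Cre driven by the tyrosinase promoter of pigment cells, and implanted in the dermis of wild-type C57BL/6 mice. The 5 control mice received a control preparation and the 5 GC mice received clobetasol propionate, a potent GC in topical use. Both groups shared the tumor line, the host strain and the sort, and all tumors derive from 1 cell line. Tumors of a group were pooled after each had been marked with its own hashtag antibody, and the control pool (17100 cells loaded) and the GC pool (3500 cells loaded) ran in separate 10x channels. Treatment and channel are therefore the same split of the tumors and cannot be told apart. The study places the harvest a few days after treatment began, and the labels do not give the ages of these mice.

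PD-1 (Pdcd1), CTLA-4 (Ctla4), LAG-3 (Lag3), TIM-3 (Havcr2), TIGIT (Tigit) and CD160 (Cd160) are surface receptors that dampen T cell activation when they meet ligands on tumor, myeloid or epithelial cells. CD39 (Entpd1) degrades extracellular ATP on the path to adenosine, and TOX (Tox) is a nuclear factor that maintains the exhausted state. In tumors, CD8+ T cells under lasting antigen stimulation acquire several of these molecules together, Tregs hold CTLA-4 constitutively, and the first receptors of this family are the targets of checkpoint blockade. Glucocorticoids act through the glucocorticoid receptor, a transcription factor that binds DNA at an inverted repeat of a short half-site and elsewhere through other factors.

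Pdcd1 and Tigit are the members that passed the test in the CD8 T cells as a whole, so their promoters are printed here, 5′ to 3′ on the strand of the gene, from 250 bases before to 50 bases after the RefSeq start (GRCm38.p6). Pdcd1 lies on chromosome 1 (94038305 to 94052553, minus strand) and Tigit on chromosome 16 (43648867 to 43664146, minus strand). Capitals mark the glucocorticoid receptor half-site TGTTCT on either strand, where it reads AGAACA on the other.
Pdcd1, chr1:94052504-94052803: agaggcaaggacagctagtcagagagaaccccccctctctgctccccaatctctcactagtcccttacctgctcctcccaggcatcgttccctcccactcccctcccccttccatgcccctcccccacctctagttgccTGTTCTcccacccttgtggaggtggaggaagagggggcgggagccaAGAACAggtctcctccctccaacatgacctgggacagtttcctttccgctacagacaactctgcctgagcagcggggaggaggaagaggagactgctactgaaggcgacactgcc
Tigit, chr16:43664135-43664434: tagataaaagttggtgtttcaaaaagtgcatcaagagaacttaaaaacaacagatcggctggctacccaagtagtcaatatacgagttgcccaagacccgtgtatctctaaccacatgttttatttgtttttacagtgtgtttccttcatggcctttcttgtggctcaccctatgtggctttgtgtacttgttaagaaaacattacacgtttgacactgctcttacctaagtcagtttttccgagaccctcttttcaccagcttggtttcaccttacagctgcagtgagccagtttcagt
The Pdcd1 window held the half-site at positions -111 and -65 from the start, on opposite strands, and the Tigit window held none. Of 32851 mouse promoters of this length, 19.0% held at least 1 half-site. The RefSeq table held promoters for 6 of the 8 members, and among the others only Cd160 matched, at both of its start sites, while those of Ctla4, Havcr2 and Entpd1 did not. The inverted repeat of the half-site with 3 bases between was found in 0.00913% of all promoters and in no member. The NFAT core GGAAAA, on either strand, was found in the Tigit, Ctla4 and second Entpd1 windows and in 23.4% of all promoters. The AP-1 motif TGACTCA, on either strand, was found in no member and in 5.2% of promoters. These are matches of letters, not measured binding. Lag3 and Tox were not in the table.

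In the genome, the other members are Ctla4 (chromosome 1, 60887000 to 60915832, plus strand), Lag3 (chromosome 6, 124904361 to 124911705, minus), Havcr2 (chromosome 11, 46454935 to 46481255, plus), Cd160 (chromosome 3, 96798763 to 96829351, minus), Entpd1 (chromosome 19, 40612366 to 40741602, plus) and Tox (chromosome 4, 6686353 to 6991557, minus) in GENCODE M21 on GRCm38. Reads in introns were counted, and whether the counting used strand is not given in the sources used here. The only overlapping genes that are also in the table are Pdzk1, on the opposite strand at the start of Cd160, and the antisense transcript Gm11802 within Tox, at 0.0117 and 0.0115 mean UMIs per 10000 in these cells.

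The control channel gave 3803 cells and the GC channel 305, with 347 to 1250 cells per control tumor and 18 to 111 per GC tumor, and no cell barcode was shared by the channels. A level is the mean over the cells of a tumor of the UMIs of a gene (captured RNA molecules) per 10000 UMIs of the cell, given where a tumor had at least 10 cells. CD8 1, CD8 2 and CD8 3 were joined as CD8 T cells, with 880 control and 107 GC cells. CD8 T cells were deeper in the GC channel, at a median of 9741 UMIs against 6826. A single marker of each went with the cluster name: control CD8 1 to CD8 3 cells held Cd8a at 4.95 to 6.69 per 10000, Tregs held Foxp3 at 4.60, NK cells held Ncr1 at 2.81 and γδT cells held Trdc at 5.58. Other markers of the lists were also found in CD8 clusters. Ikzf2, on the Treg list, was at 6.64 in control CD8 2. The 4 NK markers (Ncr1, Klrb1c, Klre1 and Klrk1) summed to 11.8 in control CD8 1. The CD4 cluster was less clear, with Cd4 at 1.44 beside Cd8a at 0.76 and the B cell gene Cd79a at 0.38. CD8 4 was the proliferating cluster (Mki67 at 8.20 per 10000, 0.12 to 0.15 in the other CD8 clusters) and had 30 control and 0 GC cells.

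Among the 8 lymphoid populations of control tumors, Pdcd1, Lag3 and Havcr2 were highest in CD8 2, Ctla4, Tigit, Entpd1 and Tox in Tregs, and Cd160 in NK cells. Outside them, Entpd1 was higher still in several myeloid clusters, with a mean of 34.6 per 10000 in neutrophils and 9.34 in eosinophils. The authors made the clusters from the expression of these same cells, so the order is a description with no test. For Pdcd1, the CD8 2 level was 9.21 ± 1.28 UMIs per 10000 (SD, n = 5 tumors) and the CD8 1 level 4.90 ± 0.74 (n = 5), with no overlap between the tumors of the clusters (7.33 to 10.9 against 4.14 to 5.80). CD8 3 followed at 3.74 ± 1.59 (n = 3), and its range (1.925 to 4.90) overlapped with that of CD8 1 but reached lower. Pdcd1 was lower in Tregs (1.30 ± 0.73) and in the CD4 cluster (1.20 ± 0.72), which overlapped, and lowest in NK cells (0.127 ± 0.149, n = 4). CD8 4 and γδT cells, with 1 control tumor each, were both at 2.51.

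Lag3 was at 4.76 ± 0.54 per 10000 in CD8 2 (4.29 to 5.61, n = 5), apart from every tumor of CD8 3 (2.00 ± 0.96, n = 3) and CD8 1 (1.33 ± 0.56). Outside the CD8 clusters its mean was at most 0.427, in Tregs. Havcr2 was at 4.71 ± 1.08 in CD8 2 and 2.75 ± 0.77 in CD8 1, apart by their ranges (4.003 to 6.62 against 1.91 to 3.79). CD8 3 (2.30 ± 0.42) and Tregs (2.26 ± 0.88) overlapped with CD8 1, whereas CD4 cells (0.0715 ± 0.0895) and NK cells (0.0278 ± 0.0324) held almost none. Cd160 was low throughout. Its NK level of 0.390 ± 0.387 (n = 4) ran from 0.0904 to 0.915 by tumor and overlapped with CD8 2 (0.339 ± 0.166) and CD4 (0.198 ± 0.0979).

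Ctla4 in Tregs was at 28.8 ± 2.6 per 10000 (26.5 to 33.2, n = 5), and CD8 2 came next at 17.97 ± 6.34 with 1 tumor (27.1) inside the Treg range. CD8 4 was at 15.5 in its 1 tumor. CD8 3 was at 8.88 ± 1.62 (n = 3), CD8 1 at 5.00 ± 0.81 and CD4 at 3.13 ± 0.55, and the ranges of these neighbors did not overlap. For Tigit, Tregs at 1.34 ± 0.10 (1.25 to 1.46) overlapped with CD8 2 at 0.898 ± 0.322 through its highest tumor (1.41), and CD8 3, CD8 1 and NK cells lay between 0.421 and 0.543 with overlapping ranges. Entpd1 showed a like order, from Tregs (2.87 ± 0.13) through CD8 2 (1.92 ± 0.62) to CD8 3 (1.32 ± 0.43) and CD8 1 (1.27 ± 0.17). Tox was at 12.8 ± 1.4 in Tregs, 11.6 in the 1 tumor with enough γδT cells, 6.86 ± 2.26 in CD8 2, 5.31 ± 0.88 in NK cells and 4.35 ± 1.39 in CD4 cells, and its lowest mean was in CD8 1, at 2.46 ± 0.32. Over 29 control profiles, each 1 tumor and 1 population, Tox was the member least like Pdcd1 (Pearson r = -0.18, against 0.80 for Havcr2 with Pdcd1). These profiles share tumors, the library and cluster definitions, so r is a description.

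**Figure D1:**
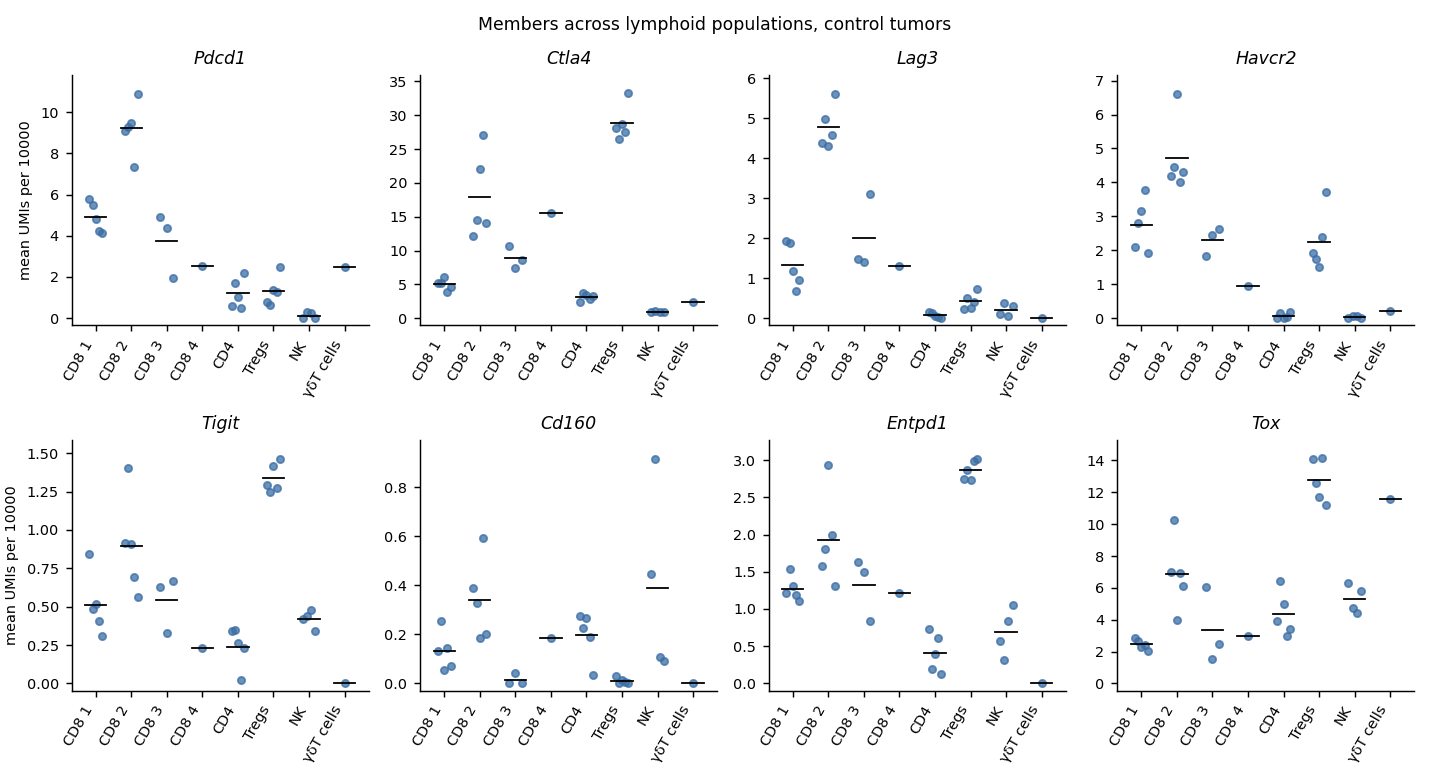
Mean UMIs per 10000 (y axis, 1 scale per gene, from 0) of the 8 members in the 8 lymphoid populations (x axis) of control tumors with at least 10 cells of the population; points are tumors and lines are means. Pdcd1, Lag3 and Havcr2 peak in CD8 2, whereas Ctla4, Tigit, Entpd1 and Tox peak in Tregs (Ctla4 mean 28.8).

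Among 6283 genes over the same profiles, the genes most like each member were Bcl2a1d, Cd3g and Dennd5a for Pdcd1 (r = 0.90, 0.90 and 0.89), Csf1, Rbpj and Runx2 for Lag3 (0.90, 0.90 and 0.88), Atxn1, AU020206 and Aopep for Havcr2 (0.90, 0.89 and 0.89) and Sv2c, Lamc1 and A430093F15Rik for Ctla4 (0.93, 0.91 and 0.90). Those for Tigit were Hopx, Jdp2 and Impa2 (0.83, 0.82 and 0.81), those for Entpd1 were Rap2a, H2-K1 and Sv2c (0.89, 0.87 and 0.87), and those for Tox were Runx1, Mmd and Crem (0.85, 0.83 and 0.82). Cd160 had a mean under 0.2 over these profiles and was not compared.

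GC treatment was then compared with control in CD8 T cells, which asks whether the inhibitory program of these cells differs under topical GC. Pdcd1 rose 2.34-fold and Tigit 2.68-fold in GC tumors, while Ctla4, Lag3, Havcr2, Entpd1 and Tox did not pass the test and Cd160 was below the level filter (a mean of 0.2 per 10000). The comparison used the 5 control tumors (84 to 385 CD8 T cells each) and the 3 GC tumors with at least 10 (GC 2 with 12 cells, GC 3 with 38 and GC 5 with 41), with limma on log2(level + 0.1). Of the 7 members tested, 2 were called higher and none lower, where 2.27% of the 6158 genes tested were called higher and 2.74% lower. The median log2 change was 0.56 over the 7 members and -0.09 over all genes tested.

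Pdcd1 was at 6.91, 6.73, 6.13, 4.70 and 6.26 UMIs per 10000 in control tumors 1 to 5, and at 14.8, 12.6 and 16.0 in GC 2, GC 3 and GC 5. Every GC tumor lay above every control tumor, and the log2 change was 1.23 ± 0.14 (SE, limma adjusted p = 0.000715). Of the GC tumors with too few CD8 T cells for the fit, GC 4 (9 cells) was at 11.97 and GC 1 (7 cells) at 3.47, below all control tumors. A fit that includes both puts Pdcd1 at a log2 change of 0.77, which missed the threshold (limma adjusted p = 0.25).

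Tigit was at 0.860, 0.805, 0.606, 0.507 and 0.424 per 10000 in the control tumors and at 2.51, 1.64 and 1.50 in GC 2, GC 3 and GC 5. Again the groups did not overlap, and the log2 change was 1.43 ± 0.24 (limma adjusted p = 0.0068). GC 4 and GC 1, outside the fit, were at 2.72 and 1.36, also above every control tumor. Separation of this kind, with every GC tumor higher, was seen in 5.70% of all genes tested.

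The level of Havcr2 was 3.35 ± 0.54 per 10000 in control (2.81 to 4.08) and 3.17, 6.76 and 6.04 in the GC tumors. GC 2 lay within the control range, and the log2 change of 0.60 ± 0.22 missed the threshold (limma adjusted p = 0.15). On summed UMIs, edgeR called it higher (log2 change 0.76, edgeR adjusted p = 0.0030), as 1 of 3 members so called among the 3.76% of genes that edgeR called higher. By limma it also passed without GC 2 (0.93, adjusted p = 0.00107) and with cells thinned to 3000 UMIs each (0.87, adjusted p = 0.032). DESeq2 called it too (0.76). Fixed cluster weights also called it (0.93), but that fit likewise left out GC 2 and is not separate from the fit without that tumor.

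Lag3 went the other way. It was at 2.44 ± 0.43 in control tumors (1.93 to 2.90) and at 1.70, 2.05 and 0.856 in GC tumors, which overlapped at GC 3, and the log2 change was -0.70 ± 0.24 (limma adjusted p = 0.13). Without GC 3 the change passed, at -0.94 (limma adjusted p = 0.041). It also passed with the CD8 1 and CD8 2 levels of a tumor combined at fixed weights, at -1.17 (limma adjusted p = 0.0088). Of the GC tumors, only GC 3 and GC 5 had the 5 cells of each cluster needed there. That fit thus left out GC 2. Leaving out GC 2 alone did not bring Lag3 past the threshold, and the causes of the difference were not tested. CD8 2, the cluster highest in Lag3, made up 24.3% to 34.7% of the CD8 T cells of control tumors and 33.3% to 50% of those of the GC tumors in the fit. These ranges overlap, and the share was not tested.

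Tox was at 3.83 ± 1.08 in control tumors and 5.58 ± 1.09 in GC tumors (log2 change 0.56 ± 0.21, limma adjusted p = 0.15), with 1 control tumor at 5.46 inside the GC range of 4.94 to 6.84. Ctla4 was at 8.97 ± 1.57 and 10.4 ± 1.47 (0.22 ± 0.15, adjusted p = 0.43), which passed only from the mean of the deposited log values (0.56, adjusted p = 0.020). Entpd1 was at 1.47 ± 0.25 and 1.38 ± 0.69 (-0.20 ± 0.28, adjusted p = 0.72). The Entpd1 direction depended on GC 2, which was at 0.642. Without that tumor the log2 change was 0.24, and by edgeR it was 0.38. Thinned to 3000 UMIs a cell it was -1.55, and -0.77 with at least 5 cells a tumor, neither of which passed. Cd160 was at 0.181 ± 0.078 and 0.194 ± 0.199 with overlapping tumors.

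**Figure D2:**
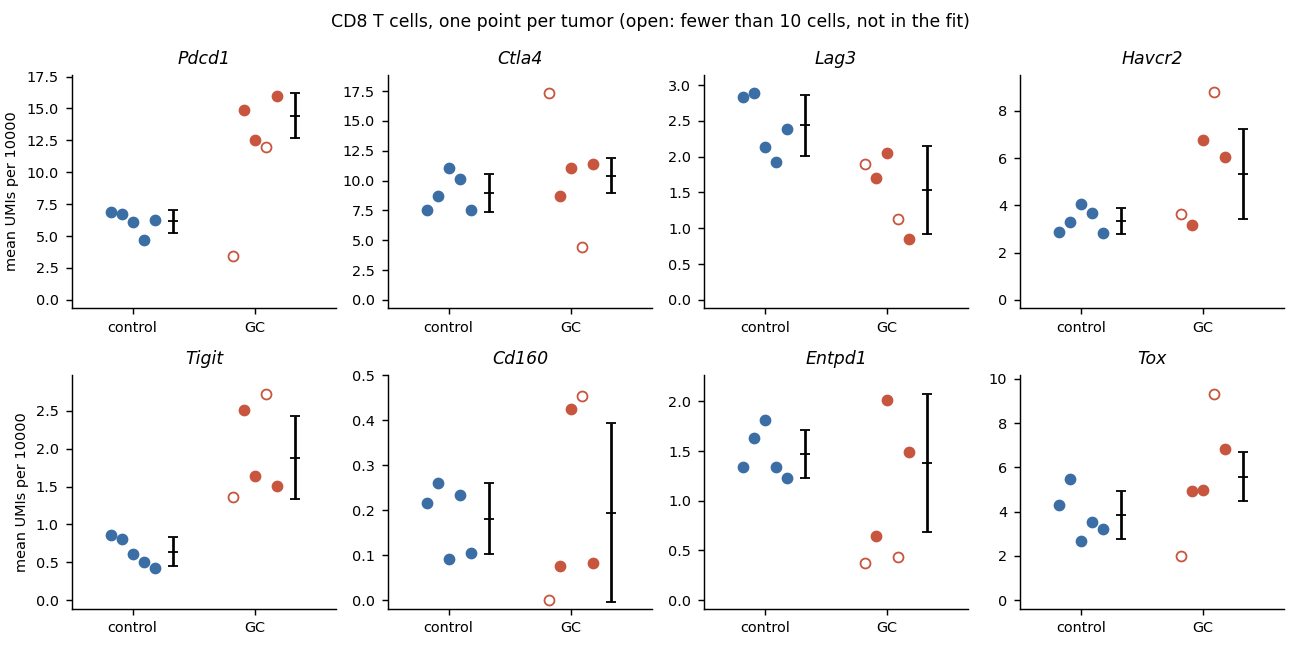
Mean UMIs per 10000 (y axis, 1 scale per gene) of each member in CD8 T cells, 1 point per tumor, control and GC; open points are the GC tumors with fewer than 10 such cells, which were not in the fit, and bars are mean and SD of the filled points. The filled GC points of Pdcd1 (12.6 to 16.0) and Tigit (1.50 to 2.51) lie above all control points, while the open GC 1 point of Pdcd1 (3.47) does not.

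Macrophage RNA differed between the channels in these cells. The summed level of 6 macrophage markers (C1qa, C1qb, C1qc, Apoe, Lyz2 and Cd68) in CD8 T cells was 0.658 to 1.19 per 10000 in control tumors and 0.113 to 0.266 in GC tumors. Leaving out every cell with a UMI of such a marker gave log2 changes of 1.42 for Pdcd1 (limma adjusted p = 0.0016) and 1.47 for Tigit (adjusted p = 0.015). Control tumor-associated macrophages held 0.0161 UMIs of Pdcd1 and 0.00429 of Tigit per 10000. The summed level of 4 NK markers (Ncr1, Klrb1c, Klre1 and Klrk1) was 9.70 to 11.5 in control and 7.06 to 7.63 in GC CD8 T cells, with Ncr1 itself at 0.0022 and 0, and its part in the results was not tested. With each cell thinned to 3000 UMIs, the log2 change was 1.29 for Pdcd1 (adjusted p = 0.00116) and 1.21 for Tigit (adjusted p = 0.023).

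Holding the cluster fixed, Pdcd1, Tigit and Havcr2 rose and Lag3 fell in CD8 1, the largest CD8 cluster, and Pdcd1 rose in CD8 2. Only GC 3 and GC 5 had 10 cells of either cluster. In CD8 1, 3 of 7 members tested were called higher and 1 lower, where limma called 2.62% of 6190 genes higher and 3.76% lower. Pdcd1 in CD8 1 was at 4.90 ± 0.74 in 5 control tumors and at 11.2 and 13.5 in GC 3 and GC 5, a log2 change of 1.32 ± 0.16 (limma adjusted p = 0.00044). Tigit was at 0.512 ± 0.200 and at 1.603 and 1.385 (1.43 ± 0.29, adjusted p = 0.010), a call that was lost with cells thinned to 3000 UMIs (1.06, adjusted p = 0.14). Havcr2 was at 2.75 ± 0.77 and at 7.68 and 4.14 (1.05 ± 0.27, adjusted p = 0.032), all GC values being above the control tumors, and it did not pass without GC 3 (0.62, adjusted p = 0.16), without control 1, 2 or 5, in thinned cells (adjusted p = 0.055) or with no filter on low values (adjusted p = 0.078). Lag3 was at 1.33 ± 0.56 and at 0.540 and 0.345 (-1.33 ± 0.34, limma adjusted p = 0.034), both below the lowest control tumor at 0.680. The share of all genes apart between the groups in CD8 1, in either direction, was not counted. The Lag3 call was lost under edgeR (adjusted p = 0.11) and DESeq2 (adjusted p = 0.075), with no filter on low values (adjusted p = 0.084), from the mean of log values (-0.39, adjusted p = 0.084), and when any 1 of control 1, 2, 3 or 5 or GC 5 was left out. Ctla4, at 5.00 ± 0.81 and 6.08 ± 0.09, was called by edgeR (0.57, adjusted p = 0.041), which called 2.58% of genes higher, but not by limma (0.29 ± 0.16, adjusted p = 0.30). Entpd1 and Tox had log2 changes of -0.25 and 0.06.

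In CD8 2, where the control level of most members was already highest among CD8 cells, 1 of 8 members was called, against 1.07% of 6072 genes called higher and 1.05% lower. Pdcd1 was at 9.21 ± 1.28 in control tumors and at 13.8 and 18.1 in GC 3 and GC 5 (0.78 ± 0.18, limma adjusted p = 0.031). This call did not hold with no filter on low values (adjusted p = 0.055), without control 1, 2 or 3 (adjusted p = 0.053 to 0.069) or without GC 5 (0.59, adjusted p = 0.21). Lag3 was at 4.76 ± 0.54 and at 3.53 and 1.37, both under the control minimum of 4.29. The share of all genes apart in this way in CD8 2 was not counted. The Lag3 log2 change of -1.07 ± 0.27 was just short of the threshold (limma adjusted p = 0.051), and it was -1.72 without GC 3, with only GC 5 left. Lag3 passed with a pseudocount of 0.5 (-0.93, limma adjusted p = 0.044) and from the mean of log values (-0.72, limma adjusted p = 0.019). Havcr2 (0.69 ± 0.22, adjusted p = 0.12) and Tigit (0.90 ± 0.30, adjusted p = 0.14) did not pass, nor did Entpd1 (0.51), Tox (0.41), Cd160 (0.13) and Ctla4 (0.02). From the mean of log values, Havcr2 (0.80, adjusted p = 0.029) and Tigit (0.55, adjusted p = 0.017) passed.

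**Figure D3:**
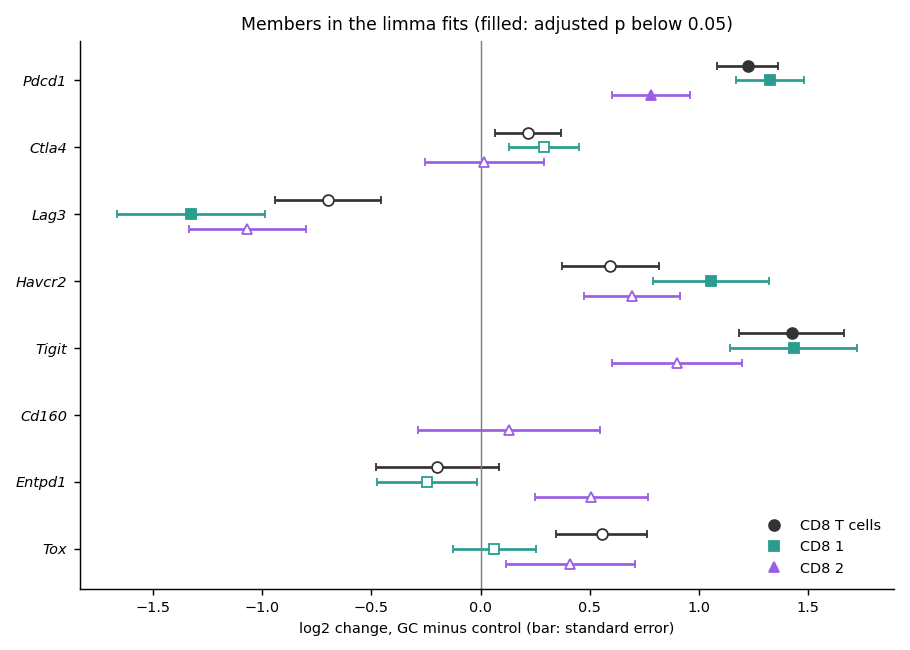
Log2 change (GC minus control, x axis) of each member with its standard error in CD8 T cells (5 against 3 tumors), CD8 1 and CD8 2 (5 against 2 tumors each) from limma; filled symbols have an adjusted p under 0.05. Pdcd1 is filled in all 3, Tigit in CD8 T cells and CD8 1, and Lag3 lies left of 0 in all 3 but is filled only in CD8 1.

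Whether the change differed between the clusters was tested as the difference CD8 2 minus CD8 1 within each tumor. By limma, 0 of 5709 genes (0%) passed and 567 had an unadjusted p under 0.05. No other tool was run on this difference. The difference was -0.54 ± 0.35 for Pdcd1 (adjusted p = 0.65), -0.53 ± 0.38 for Tigit, -0.36 ± 0.46 for Havcr2 and 0.26 ± 0.54 for Lag3, so a larger change in CD8 1 than in CD8 2 was not shown for any member.

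The share of cells with a UMI and the UMIs in each such cell were then described. Each cell with at least 3000 UMIs was thinned to 3000, which kept 817 of 880 control and 103 of 107 GC CD8 T cells. A UMI of Pdcd1 was found in 62.1% to 73.4% of the cells of control tumors and 72.7% to 92.7% in GC tumors, which overlap (means 68.0% and 82.0%), while the mean UMIs per positive cell were 2.37 to 3.01 and 5.00 to 5.79, which do not. For Tigit, the share of positive cells was 11.5% to 21.6% in control and 30.6% to 54.5% in GC tumors, without overlap, and the UMIs per positive cell were 1.00 to 1.27 and 1.18 to 1.33. Tumors of the 2 groups were thus apart by the UMIs per positive cell for Pdcd1 and by the share of positive cells for Tigit. GC 1 and GC 4 had too few cells to enter. The share of all genes apart on these measures was not counted, so the separation is a description. Most control cells already had Pdcd1, and the UMIs per positive cell of Tigit lay near the lowest possible value of 1, so both measures were bounded, and no difference between the genes was tested. Lag3 was found in 31.6% to 44.6% of control cells and 17.1% to 27.8% of GC cells by tumor, without overlap, and Entpd1 in 22.3% to 32.7% and 9.09% to 25% with 1.89 to 4.0 UMIs per positive cell in GC against 1.19 to 1.87, where the GC values rest on 1, 9 and 9 positive cells. Havcr2 was found in 41.7% to 50% and 41.7% to 54.5%, with 2.12 to 2.60 and 2.0 to 4.40 UMIs per positive cell.

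**Figure D4:**
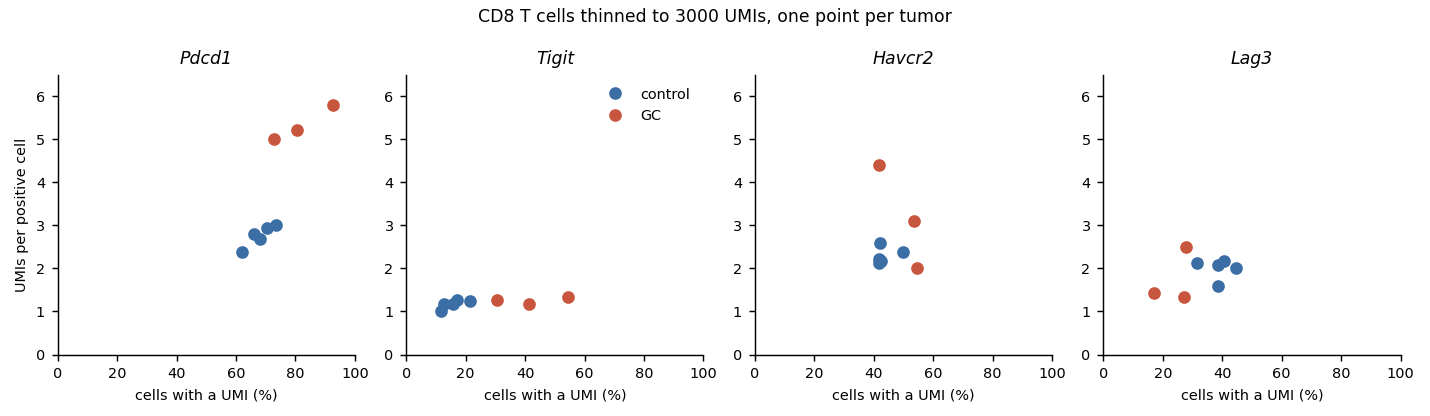
Percent of CD8 T cells with a UMI of the gene (x axis) against the mean UMIs of the gene per positive cell (y axis), 1 point per tumor, all cells thinned to 3000 UMIs. GC points of Pdcd1 lie higher (5.00 to 5.79 UMIs against 2.37 to 3.01), GC points of Tigit lie to the right (30.6% to 54.5% against 11.5% to 21.6%), and those of Lag3 lie to the left.

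Neutrophils, which should lack most of these receptors, gave the background. At the same 3000 UMIs (median depth before thinning 4220 UMIs in control), 1.48% of 135 control neutrophils had a UMI of Pdcd1, 6.67% of Ctla4, 0.741% of Lag3, 7.41% of Havcr2 and 0.741% of Tox. Tigit and Cd160 were at 0 of 135, which allows a share of up to 2.22%. Entpd1, found in 97.8% of neutrophils, has no background there, and DC 1, a dendritic cell cluster, gave 0 of 91 (up to 3.30%). Against these, the Havcr2 share in CD4 cells (1.3%) and NK cells (0.97%) and the Cd160 share in Tregs (0.24%) are at background. Lag3 was found in 0 of 38 control γδT cells, which allows up to 7.89%. Before thinning, Tigit was found in 28.1% of control and 67.3% of GC CD8 T cells.

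The members were often found together. At 3000 UMIs, a CD8 T cell held a UMI of 3.07 members on average in control and 3.36 in GC. The share of cells with 3 or more members was 49.7% of 471 cells in control CD8 1 and 89.4% of 255 in control CD8 2, and 59.7% of 412 control Tregs, but 10.2% of CD4, 4.85% of NK and 7.89% of γδT cells. By tumor, 52.6% to 64.1% of control CD8 T cells and 72.2% to 78.1% of GC CD8 T cells held 3 or more. These ranges did not overlap, with GC 1 and GC 4 left out for too few cells. Within CD8 1 the ranges were 39.7% to 53.3% and 43.8% to 57.1%, and within CD8 2 they were 82.7% to 96.2% and 94.7% to 100%, both with overlap. With the CD8 2 cells of all tumors pooled, 89.4% in control and 89.1% of 46 in GC held 3 or more. In these cells 74.1% and 54.3% held 4 or more, and the mean was 4.24 and 3.80 members. The lower GC mean was found at 3000 UMIs alone. It was 3.05 in control and 3.24 in GC at 1500 UMIs, 4.735 and 4.786 at 5000, and 5.23 and 5.5 with all UMIs. The share with 4 or more was 38.8% and 34.8% at 1500, 80.9% and 83.3% at 5000, and 85.5% and 91.3% with all UMIs.

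Joint detection was compared with the number of cells expected from the share of each gene within each tumor. Of the 28 pairs of members, 27 had at least 10 expected cells in control CD8 T cells, and the ratio of observed to expected had a median of 1.11. With the expectation taken within each tumor and cluster, the median was 1.06 (0.70 to 1.44) and 19 of the 27 pairs were above 1. Lag3 with Tigit had 73 cells against 59.5 expected (ratio 1.23), Tigit with Tox 68 against 56.3 (1.21) and Havcr2 with Entpd1 139 against 116 (1.20). Pdcd1 with Tigit was at 90 against 92.0 (0.98). In GC cells 16 pairs had 10 expected cells, with a median of 1.03. In counts this sparse, ratios this close to 1 were not read as joint expression. In control Tregs, the largest ratio among 18 pairs was that of Pdcd1 with Tox, 72 cells against 54.8 (1.31).

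Ratios further below 1 were found for Tcf7, which encodes the factor TCF1 of stem-like T cells. Entpd1 and Tcf7 were found together in 14 control CD8 T cells against 35.4 expected (ratio 0.40), Havcr2 and Tcf7 in 37 against 56.8 (0.65) and Lag3 and Tcf7 in 30 against 45.4 (0.66). Pdcd1 with Tcf7 (79 against 86.3, 0.92) and Tigit with Tcf7 (18 against 19.5, 0.93) were nearer to 1. The ratio of Entpd1 with Tcf7 was 0.45 at 1500, 0.60 at 5000 and 0.68 with all UMIs. In GC cells 3 were found against 2.92 expected, too few to compare. Slamf6, another stem-like marker, was found in 30 control cells, and with Entpd1 in 3 against 8.02 expected (0.37). With the cytotoxic gene Gzmb (granzyme B), Lag3 (1.14), Entpd1 (1.14) and Havcr2 (1.13) lay slightly above 1, and with Ifng (interferon-γ) Havcr2 was at 1.18.

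**Figure D5:**
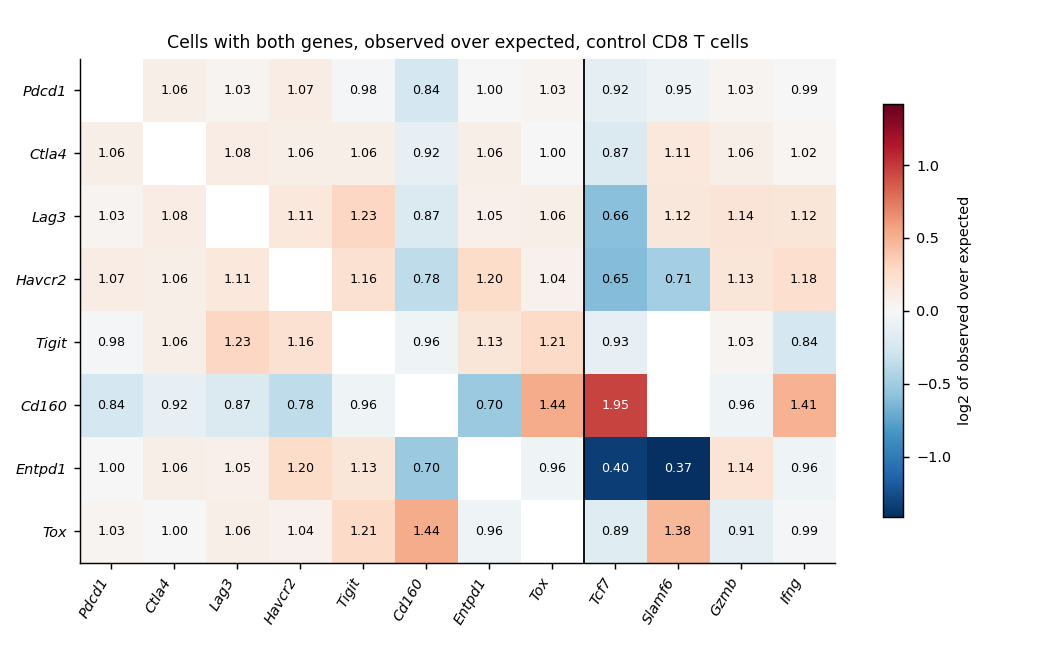
Observed over expected number of control CD8 T cells with a UMI of both genes (cells thinned to 3000 UMIs, expectation within tumor and cluster), color on a log2 scale with the ratio printed; rows are members, columns are members and, right of the line, Tcf7, Slamf6, Gzmb and Ifng, and pairs with fewer than 5 expected cells are blank. Most member pairs lie near 1, Tcf7 with Entpd1 (0.40), Havcr2 (0.65) and Lag3 (0.66) lies below, and the Cd160 row rests on 38 positive cells.

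The other populations were not tested, since fewer than 2 GC tumors reached the minimum of 10 cells used here. Pooled levels are given with exact 95% Poisson intervals, which cover counting error only. In γδT cells, Pdcd1 was at 1.65 UMIs per 10000 in control (1.22 to 2.17, 43 cells, of which 20 had a UMI) and 7.62 in GC (5.80 to 9.83, 11 cells, of which 8), and Ctla4 at 1.02 (0.694 to 1.45) and 4.65 (3.26 to 6.43). In CD8 3, Pdcd1 was at 4.56 (4.06 to 5.11, 94 cells) and 18.04 (14.9 to 21.7, 7 cells, all with a UMI) and Tox at 2.59 (2.22 to 3.02) and 12.4 (9.81 to 15.5, 5 cells with a UMI). Of these GC CD8 3 cells, GC 5 gave 4, GC 2 gave 2 and GC 3 gave 1, and GC 3 gave 6 of the GC γδT cells. Tigit was at 0.273 (0.205 to 0.356, 253 cells) in control and 2.21 (1.40 to 3.31, 10 cells, 8 with a UMI) in GC CD4 cells, and at 1.24 (1.12 to 1.37, 486 cells) and 2.38 (1.61 to 3.40, 14 cells, 12 with a UMI) in Tregs. In the same Tregs, Ctla4 was at 30.1 (29.5 to 30.7) and 24.6 (21.9 to 27.5), Entpd1 at 2.68 (2.51 to 2.87) and 0.715 (0.327 to 1.36), and Pdcd1 at 0.990 (0.884 to 1.10) and 1.35 (0.787 to 2.16). In CD4 cells Pdcd1 was at 0.383 in GC (0.104 to 0.982, from 4 UMIs) and 0.95 in control (0.819 to 1.10), with overlapping intervals. The GC channel had 4 NK cells, all with a UMI of Tigit (2.01 per 10000, 1.15 to 3.27, against 0.470, 0.346 to 0.626, in control).

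The related genes of CD8 T cells were counted in 6 lists, to be read against the 2.27% of all genes called higher and 2.74% called lower. Counts this small beside such a background are given as a description of the lists. Of 16 other inhibitory receptors, 10 were tested and 1 fell, Cd200r1, which encodes the receptor of CD200 (2.50 ± 0.26 to 1.15 ± 0.46, log2 change -1.13 ± 0.22, limma adjusted p = 0.014). Of 19 exhaustion-associated transcription factors, 16 were tested, 1 rose and 2 fell, with a list median of -0.25. Tbx21, which encodes T-bet, a driver of effector differentiation, fell from 4.03 ± 0.15 to 1.41 ± 0.47 (log2 change -1.50 ± 0.17, limma adjusted p = 0.00075). Every GC tumor in the fit (0.988 to 1.91) lay below every control tumor (3.82 to 4.17), and GC 4, outside the fit, was at 5.07. The share of all genes apart in the lower direction was not counted. Rbpj, the nuclear mediator of Notch signals, fell from 12.2 ± 1.6 to 7.81 ± 0.28 (limma adjusted p = 0.011), and Prdm1, which encodes Blimp-1, rose from 1.10 ± 0.19 to 2.96 ± 1.88 (limma adjusted p = 0.049). The GC tumors ran from 1.44 to 5.06 for Prdm1, which was not called higher in CD8 1 or CD8 2. Of 13 stem-like genes, 8 were tested and 2 rose, Il7r (4.75 ± 0.64 to 14.2 ± 2.57, log2 change 1.55 ± 0.15, adjusted p = 0.00026), the receptor for interleukin-7, and Ccr7 (0.250 ± 0.171 to 1.20 ± 0.94, adjusted p = 0.041), a lymph node homing receptor that edgeR did not call (adjusted p = 0.10). Of 9 costimulatory or activation genes all were tested and Cd226 fell, the activating receptor that shares ligands with TIGIT (7.46 ± 0.72 to 3.83 ± 0.92, -0.97 ± 0.15, adjusted p = 0.0041). None of 8 signal transducers of these receptors, such as Ptpn6 and Ptpn11, and none of the 6 tested ligand genes passed by limma in CD8 T cells. The list medians lay between -0.25 and 0.29, against -0.09 over all genes.

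In CD8 1 the same direction was called for Cd200r1, Tbx21 (-2.08), Rbpj (-0.67), Il7r (1.58) and Cd226 (-0.83), and in CD8 2 for Tbx21 (-1.05), Rbpj (-0.75) and Il7r (1.51). Egr3 (-2.31), Xcl1 (-2.37) and Lef1 (-1.10) also fell in CD8 1, of which edgeR called Xcl1 only. EdgeR called neither Cd200r1 in CD8 1 nor Tbx21 and Rbpj in CD8 2. Of the ligand genes in control tumors, Cd274 (PD-L1) had its highest mean in DC 1 (12.03 per 10000) and Cd86 in DC 2 (26.9), against 1.36 and 1.34 in CD8 T cells. Pdcd1lg2 (PD-L2) also had its highest mean in DC 1 (4.61), with 1.12 in DC 2, 1.06 in Tregs and 0.367 in tumor-associated macrophages. Lgals9 (galectin-9, a TIM-3 ligand) was highest in Monocytes 1 (2.31), with 1.45 in CD8 3 and 1.06 in the macrophages.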

How the data were processed

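Per the labels and methods, CD45+ cells of 5 control and 5 GC tumors were hashtagged, pooled by group and sequenced from the 3' end. The authors counted UMIs with Cell Ranger 7.1.0 on mm10 with introns included, and assigned hashtags, removed multiplets between tumors and named clusters in Seurat 5.0.3 under R 4.3.1. No further doublet caller was run. The deposited expression values are the natural log of 1 plus UMIs per 10000 of the cell. The deposited cell table gives each cell's UMI count and mitochondrial percent. Back-transformation gave whole UMIs, within 0.01, for 100% of values.

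Here, values were averaged per tumor on the linear scale, and log2(mean + 0.1) was fitted in limma 3.58.1 under R 4.3.3 with a robust trend on the variance. Tumors needed 10 cells to enter, and a gene an average level of 0.2. Benjamini-Hochberg adjusted p-values under 0.05 over all genes tested were called. With the pseudocount, the fold of a gene of low level comes out too small. On recovered UMI sums, edgeR 4.0.16 (quasi-likelihood) and DESeq2 1.42.0 served as alternatives. Code was tested on simulated data. Tumors were the replicates, 1 per mouse. CD8 4 was kept out of the CD8 T cells because it was a proliferating cluster with no GC cells. The methods of the study state no per-tumor test for the RNA of these genes. For protein, the paper compared tumors by flow cytometry. It reports more PD-1 and less CD39 after GC on CD8+ T cells that resembled resident memory cells. The share of PD-1+ TOX+ cells was reported as unaltered.

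Thinning drew 3000 UMIs per cell without replacement and left out shallower cells. Intervals on counts are exact 95% Poisson intervals, and a limit of 0 is 3 counts. They cover counting error only. All 8 members are described. Genes of the 6 lists were named where they passed in CD8 T cells, up to 6 a list, and the text adds those that passed in CD8 1 or CD8 2. Likeness used the 3 non-member genes with the highest r. The members and lists were chosen with earlier results of these data known. Sequences and starts are from RefSeq (GRCm38.p6).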

Additional observations from a re-analysis of the deposited data

Results flagged for a closer look

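Of 48 groups of 4 or 5 tumors in which a member's level could be checked for a tumor far from the rest, 1 stood out, and chance alone picks about 1 in 20 such groups. In the CD8 2 cluster, control tumor 3 was at 6.62 UMIs of Havcr2 per 10000, while the other 4 control tumors were at 4.003 to 4.45. Without it, the log2 change of Havcr2 in CD8 2 was 0.82 (limma adjusted p = 0.075), against 0.69 with it (adjusted p = 0.12).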

How the results depend on the processing

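Over the log2 changes of single members, 423 values under an alternative kept their direction and side of the threshold, 22 lost the call, 15 gained it and 25 reversed. The reversed values all belong to changes that did not pass. Entpd1 in CD8 T cells went from -0.20 to 0.38 by edgeR, 0.35 by DESeq2 and -1.55 in thinned cells, and ran from -0.52 to 0.24 leaving out 1 tumor. With at least 20 cells a tumor it was 0.24 and with fixed cluster weights 0.13, and both of these fits left out GC 2. In CD8 1, leaving out 1 tumor gave -0.61 to 0.12 for Entpd1 and -0.21 to 0.33 for Tox, which was at -0.29 in thinned cells. In CD8 2, thinning gave -0.035 for Ctla4 and -0.89 for Cd160, and leaving out 1 tumor gave -0.11 to 0.18 and -0.42 to 0.68. For CD8 2 minus CD8 1, the mean of the deposited log values gave 0.074 for Ctla4, -0.34 for Lag3 and 0.20 for Havcr2, thinning gave -0.018 for Lag3 and -0.11 for Entpd1, a pseudocount of 0.5 gave -0.025 for Lag3, and leaving out 1 tumor gave -0.13 to 0.65 for Lag3, -1.08 to 0.36 for Havcr2 and -0.28 to 0.98 for Tox. The causes were not tested.

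Counts over all genes moved more, and in CD8 T cells the minimum of 20 cells and the fixed weights again left out GC 2. In CD8 T cells, 140 genes called higher became 82 without a filter, 266 with at least 20 cells, 232 by edgeR, 250 by DESeq2 and 237 with fixed weights (78 to 266 leaving out 1 tumor), and 169 called lower became 85 without a filter, 338 with at least 20 cells, 142 by edgeR, 315 with fixed weights, 89 with at least 5 cells, 93 from log means and 99 thinned (57 to 342). In CD8 1, 162 higher became 89 with at least 5 cells and 268 from log means (99 to 483), and 233 lower became 119 without a filter, 62 with at least 5 cells, 103 from log means, 65 by edgeR and 50 by DESeq2 (118 to 767). In CD8 2, 65 higher became 43 without a filter, 161 from log means and 18 thinned (36 to 69), and 64 lower became 26 without a filter, 34 from log means, 24 thinned, 20 by edgeR and 28 by DESeq2 (27 to 105). The 0 genes of the difference between clusters became 2 with a pseudocount of 0.5 and 4 thinned (0 to 17). At least 20 cells a tumor could not be fitted in CD8 1, CD8 2 or their difference, for want of GC tumors.

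CD8 T cells with 3 or more members made up 61.7% in control and 71.8% in GC at 3000 UMIs a cell, 37.2% and 50.9% at 1500, 74.7% and 87.2% at 5000, and 77.3% and 93.5% with all UMIs. No paired analysis was possible because the hashtag numbers of control and GC tumors name different mice. Depth of 7 to 41 CD8 T cells per GC tumor limits every GC level.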

Other observations

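Havcr2 was also found outside lymphocytes (its product TIM-3 is known on dendritic cells and macrophages as well). In tumor-associated macrophages it was at 1.28 to 1.83 UMIs per 10000 in the 5 control tumors and at 3.14 (17 cells) and 4.94 (16 cells) in the GC tumors with at least 10 such cells. Pooled, the levels were 1.68 (exact 95% Poisson interval 1.60 to 1.77, counting error only) and 4.60 (4.14 to 5.11). In the DC 2 cluster the pooled Havcr2 levels were 4.09 (3.77 to 4.42, 95 cells) and 10.8 (9.30 to 12.4, 9 cells), and in Monocytes 1 they were 2.53 (2.37 to 2.70) and 4.17 (3.48 to 4.97). Neutrophils held Entpd1 at 35.0 (33.6 to 36.4, 162 cells) in control and 27.4 (25.4 to 29.5, 44 cells) in GC. None of these differences was tested, and the GC channel was deeper in these cells, at a median of 17855 against 12883 UMIs in macrophages.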
